A study of Mus musculus with 4 samples.

Results

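The light chain genes described here were Igkc, which encodes the constant region of the kappa light chain, Iglc1, Iglc2 and Iglc3, which encode constant regions of lambda light chains, and Iglv1, Iglv2 and Iglv3, the lambda variable segments. They were taken as named genes, without a cutoff on their expression, from a table of 41214 Ensembl genes. The choice was made with earlier results of these data known. Of the 7 genes, 5 were matched to a row by the identifier that the GENCODE annotation of GRCm38 pairs with the symbol. Iglc1 and Iglc3 were not matched and were not analysed here, so every value for a lambda constant region below is a value of Iglc2 alone.

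The study used RNA-seq to compare splenic B220+ cells of wild-type mice (MIZ-1WT) with those of mice whose B cells express the transcription factor MIZ-1 without its POZ domain (MIZ-1ΔPOZ), and asked which transcripts depend on that domain. There were 2 libraries of each genotype, prepared from unstimulated cells as biological duplicates. The MIZ-1ΔPOZ mice carried Miz-1 floxPOZ alleles and Mb1-Cre, whose recombinase is expressed under the control of Cd79a in the B lineage. The MIZ-1WT mice are labelled wild type, and whether they carried Mb1-Cre or floxed alleles is not given in the sources used here. All mice were on a C57BL/6 background, and the study worked with animals of 40 to 70 days. Cells were taken by magnetic selection for B220, a B cell form of CD45 that some other cells also carry.

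The libraries held from 43026814 to 46387209 counts on genes. Zbtb17, the gene of MIZ-1, was counted at 47.8 and 46.3 CPM in MIZ-1WT, where CPM is the count scaled to library size, and at 37.3 and 38.0 CPM in MIZ-1ΔPOZ, a log2 fold change of -0.32 (SE 0.06, adjusted p = 0.00857). This row covers the whole gene and not the deleted exons alone, so it bears on the genotype labels only in part. The replicates differed by more than the sampling of reads, with a chi-square per degree of freedom of 9.79 between the MIZ-1WT libraries and 21.9 between the MIZ-1ΔPOZ libraries. Xist, which is transcribed from the inactive X chromosome, was at 1.12 and 1.43 CPM in MIZ-1WT and at 801 and 930 CPM in MIZ-1ΔPOZ, and 4 of 4 Y-linked genes were lower in MIZ-1ΔPOZ. Genotype and sex of the mice therefore cannot be told apart in any comparison below. Pan-B markers were high in every library, with a summed level from 13533 to 15795 CPM.

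An antibody or B cell receptor joins each heavy chain to a kappa or a lambda light chain. A light chain gene is assembled by joining a variable to a joining segment, and its transcript is spliced to a constant exon. Kappa usually rearranges before lambda, and mouse B cells use kappa far more often than lambda. The mouse lambda locus is small: Iglv2 and Iglv3 lie upstream of the Iglj2-Iglc2 cluster, to which they usually join, and Iglv1 lies upstream of the clusters with Iglc3 and Iglc1. On GRCm38 Igkc was annotated at chr6:70726435-70726966 on the plus strand. The lambda genes were on the minus strand of chromosome 16, in the transcription order Iglv2 (chr16:19260401-19260859), Iglv3 (chr16:19241207-19241690), Iglc2 (chr16:19198396-19200351) and Iglv1 (chr16:19085017-19085500). Iglc3 and Iglc1 followed at chr16:19065230-19065681 and chr16:19061618-19062071. Iglc2 contains the joining segment Iglj2 within an exon of one of its transcripts. A lincRNA, Gm30211, spans Igkc on the same strand, and 2010309G21Rik spans Iglv1 on the opposite strand, neither with an exon over the member.

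The lambda genes include near-identical pairs, which matters for which of them a short read can be assigned to. The coding sequences below are those of GRCm38, written 5′ to 3′ on the coding strand. They are shown to compare the members of each pair, with Igkc and Iglv3 as genes that have no such partner. Capitals mark bases that lie within a run of 50 bases found without a mismatch in the partner gene, where 50 bases is the sequencing read length.
Igkc, chr6:70726435-70726554, plus strand: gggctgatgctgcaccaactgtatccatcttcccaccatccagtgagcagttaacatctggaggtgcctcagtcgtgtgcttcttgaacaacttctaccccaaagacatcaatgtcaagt
Iglc2, chr16:19198553-19198852, minus strand: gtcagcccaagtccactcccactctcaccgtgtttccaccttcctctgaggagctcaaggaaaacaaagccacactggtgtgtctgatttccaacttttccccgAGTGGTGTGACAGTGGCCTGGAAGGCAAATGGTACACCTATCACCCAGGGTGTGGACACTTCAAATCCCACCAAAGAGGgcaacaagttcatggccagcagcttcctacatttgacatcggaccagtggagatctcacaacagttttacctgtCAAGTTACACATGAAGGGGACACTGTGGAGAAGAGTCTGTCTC
Iglc3, chr16:19065382-19065681, minus strand: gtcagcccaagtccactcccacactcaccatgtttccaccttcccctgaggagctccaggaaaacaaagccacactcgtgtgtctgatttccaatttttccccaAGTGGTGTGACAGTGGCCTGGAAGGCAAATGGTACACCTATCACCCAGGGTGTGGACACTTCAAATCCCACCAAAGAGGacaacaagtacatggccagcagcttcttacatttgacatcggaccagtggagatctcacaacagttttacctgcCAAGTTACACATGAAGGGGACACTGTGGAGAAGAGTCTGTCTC
Iglv1, chr16:19085032-19085301, minus strand: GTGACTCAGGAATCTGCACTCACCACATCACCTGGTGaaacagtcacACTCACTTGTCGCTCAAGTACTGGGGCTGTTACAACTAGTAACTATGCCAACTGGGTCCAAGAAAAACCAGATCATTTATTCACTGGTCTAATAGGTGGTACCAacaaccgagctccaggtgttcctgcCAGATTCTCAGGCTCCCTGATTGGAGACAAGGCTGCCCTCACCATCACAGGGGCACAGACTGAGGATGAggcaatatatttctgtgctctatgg
Iglv2, chr16:19260416-19260685, minus strand: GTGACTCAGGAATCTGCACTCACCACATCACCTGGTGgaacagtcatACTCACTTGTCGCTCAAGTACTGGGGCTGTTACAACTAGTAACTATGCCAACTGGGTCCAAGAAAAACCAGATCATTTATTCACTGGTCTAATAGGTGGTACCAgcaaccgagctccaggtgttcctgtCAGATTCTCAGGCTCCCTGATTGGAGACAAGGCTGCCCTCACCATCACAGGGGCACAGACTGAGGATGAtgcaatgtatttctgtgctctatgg
Iglv3, chr16:19241391-19241510, minus strand: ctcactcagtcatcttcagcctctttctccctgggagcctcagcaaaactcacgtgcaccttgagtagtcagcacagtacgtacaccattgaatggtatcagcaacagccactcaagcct

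In these stretches 122 of the 300 bases of Iglc2 are in capitals and 210 of the 270 bases of Iglv1. Over whole transcripts, Iglc2 and Iglc3 were identical at 429 of 452 aligned bases (94.9%), and Iglv1 and Iglv2 at 353 of 364 (97.0%). Of all 50-base windows, 10.5% of those in Iglc2 occurred unchanged in Iglc3, 22.2% of those in Iglv1 occurred in Iglv2, and 24.0% of those in Iglv2 occurred in Iglv1. With up to 2 mismatches allowed, the shares were 50.1%, 78.1% and 84.2%. Igkc and Iglv3 shared no window with another listed gene on either count. The authors' counting left out reads without a unique alignment, which made up from 42.8% to 44.1% of all lines in the 4 libraries. Counts of Iglc2, Iglv1 and Iglv2 are uncertain for that reason, since reads within the shared windows could be dropped or assigned to the partner. How far this moved them was not tested. Igkc and Iglv3 hold no such window.

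Of the 5 measured light chain genes, Igkc and Iglv1 were higher in MIZ-1ΔPOZ than in MIZ-1WT, Iglc2 and Iglv3 were lower, and Iglv2 did not pass the test. The measured constant genes Igkc and Iglc2 thus moved in opposite directions, and so did the lambda variable segments Iglv1 and Iglv3. The count of 4 of 5 passing an adjusted p of 0.05 stands beside 40% of all 14554 genes tested. In each direction 2 of 5 passed, beside 21.1% of all genes higher and 18.9% lower. The libraries of the 2 genotypes did not overlap in CPM for 4 of 5 members, as for 74.8% of all genes. In bulk RNA, fewer cells using a light chain and less of its RNA per cell cannot be told apart, and this holds for every value that follows.

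**Figure D1:**
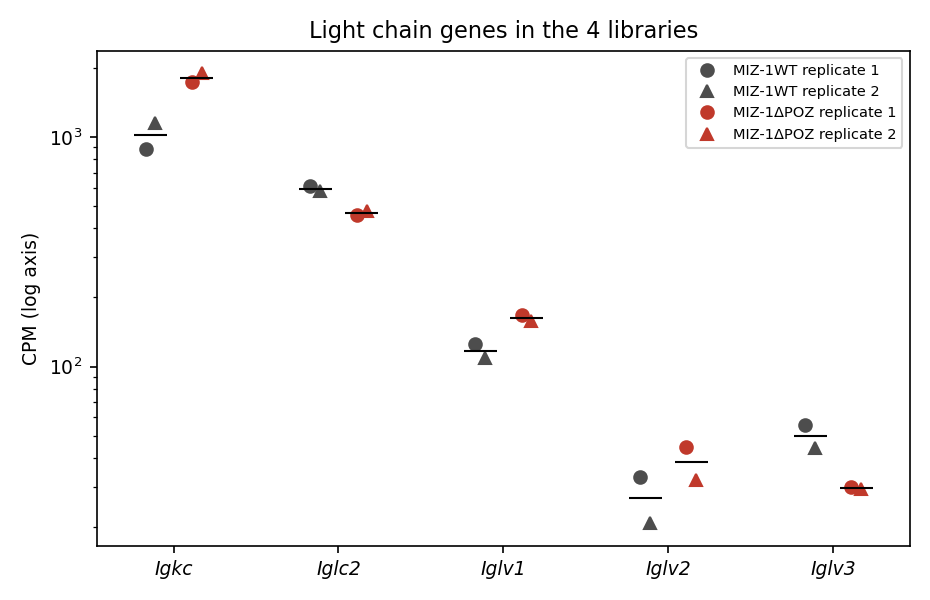
CPM of the 5 measured light chain genes on a log axis, with MIZ-1WT in grey, MIZ-1ΔPOZ in red, replicate 1 as circles, replicate 2 as triangles and group means as short bars. Igkc stands at 890 and 1151 CPM in MIZ-1WT and at 1730 and 1895 CPM in MIZ-1ΔPOZ, and only Iglv2 has libraries of the 2 genotypes that overlap.

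Igkc, the only kappa constant gene, was the most abundant member in every library. It was at 890 and 1151 CPM in MIZ-1WT and at 1730 and 1895 CPM in MIZ-1ΔPOZ. Both MIZ-1ΔPOZ libraries were above both MIZ-1WT libraries, and the MIZ-1WT libraries were further apart from each other. The group means were 1021 ± 184 and 1812 ± 116 CPM (SD, n = 2 each), a ratio of 1.78. The log2 fold change in edgeR was 0.83 (SE 0.13, 95% interval 0.51 to 1.14, adjusted p = 0.00587). Igkc took 0.0874% and 0.112% of all counts on genes in MIZ-1WT and 0.178% and 0.192% in MIZ-1ΔPOZ.

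Kappa variable segments were compared as a sum and one by one. Summed over 103 Igkv rows they were at 839 and 1023 CPM in MIZ-1WT and at 1648 and 1720 CPM in MIZ-1ΔPOZ, 1.81 times the level of MIZ-1WT. Of 93 tested Igkv segments, 43 were higher, 1 was lower and the other segments did not pass, beside 21.1% of all genes higher and 18.9% lower, with a median log2 fold change of 0.56 against -0.01 over all tested genes. Many Igkv segments resemble each other, so the single rows are uncertain. The ratio of Igkc to summed Igkv counts was 1.06 and 1.13 in MIZ-1WT and 1.05 and 1.10 in MIZ-1ΔPOZ. These overlapped between genotypes (difference in log2 -0.02, exact two-sided permutation test p = 0.667). The 5 Igkj joining segments were listed at 0 counts in every library.

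Iglc2, the measured lambda constant gene, was the second most abundant member. It was at 612 and 580 CPM in MIZ-1WT and at 459 and 475 CPM in MIZ-1ΔPOZ. The groups did not overlap, and replicates of each genotype lay close together. The means were 596 ± 22.5 and 467 ± 11.6 CPM (SD, n = 2 each), so that MIZ-1ΔPOZ stood at 78.3% of MIZ-1WT. The log2 fold change was -0.35 (SE 0.05, 95% interval -0.48 to -0.22, adjusted p = 0.00528). Pan-B markers had a median log2 fold change of -0.24 in the same fit. With libraries scaled to pan-B markers, Iglc2 was at -0.18 in edgeR, with an adjusted p of 0.0498 that lies close to the threshold.

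Iglv1, the most abundant lambda variable segment, was at 125 and 109 CPM in MIZ-1WT and at 167 and 158 CPM in MIZ-1ΔPOZ. Both MIZ-1ΔPOZ values lay above both MIZ-1WT values. With means of 117 ± 11.2 and 163 ± 6.18 CPM (SD, n = 2 each), the log2 fold change was 0.48 (SE 0.07, 95% interval 0.29 to 0.66, adjusted p = 0.00622).

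Iglv3, which usually joins to Iglj2 and Iglc2, was at 55.7 and 44.1 CPM in MIZ-1WT and at 29.8 and 29.2 CPM in MIZ-1ΔPOZ. The MIZ-1ΔPOZ libraries were nearly equal and below both MIZ-1WT libraries, which were further apart. The mean fell from 49.9 ± 8.20 to 29.5 ± 0.473 CPM (SD, n = 2 each), or to 59.1% of MIZ-1WT. The log2 fold change was -0.76 (SE 0.11, adjusted p = 0.00561).

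Iglv2, the near copy of Iglv1, was at 32.9 and 20.8 CPM in MIZ-1WT and at 44.4 and 32.2 CPM in MIZ-1ΔPOZ. The genotypes overlapped, with the lower MIZ-1ΔPOZ library below the higher MIZ-1WT library. The log2 fold change was 0.51 (SE 0.24, 95% interval -0.09 to 1.12, adjusted p = 0.147), so a change of the size seen for Iglv1 lies within its interval. Iglv2 passed the test when MIZ-1ΔPOZ replicate 2 was left out, at a log2 fold change of 0.73 and an adjusted p of 0.0392.

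Levels of different genes were set side by side per kilobase of exon. Reads of Iglc2, Iglv1 and Iglv2 in the shared windows may be missing or misassigned, so their levels are uncertain against those of Igkc and Iglv3. Igkc stood at 1919 CPM per kilobase in MIZ-1WT and 3407 in MIZ-1ΔPOZ, rank 18 and rank 6 among the tested genes. Iglc2 stood at 974 and 763 CPM per kilobase, rank 34 and rank 47, taken over 612 bases of merged exons. The Iglc2 transcript used for the sequence windows has 458 bases, and that length would put its level higher. Iglv1 followed at 299 and 416 CPM per kilobase. As counted, these 3 genes stood in this order in every library. Iglv3 stood at 131 CPM per kilobase in MIZ-1WT and 77.5 in MIZ-1ΔPOZ, and Iglv2 at 73.4 and 104.6, and no order is read from this pair.

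**Figure D2:**
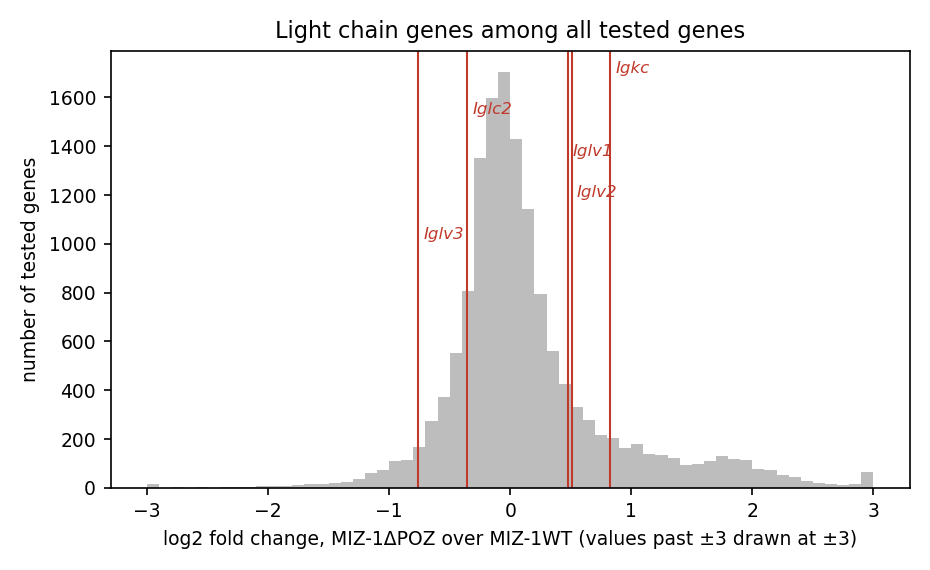
Number of tested genes in bins of log2 fold change of 0.1, MIZ-1ΔPOZ over MIZ-1WT, with values beyond 3 in either direction drawn at 3, and the 5 light chain genes as red lines. Igkc at 0.83, Iglv2 at 0.51 and Iglv1 at 0.48 lie to the right of the median of all genes at -0.01, and Iglc2 at -0.35 and Iglv3 at -0.76 lie to its left.

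The balance of kappa to lambda was next taken within each library, where no scaling between libraries enters. The ratio of Igkc to Iglc2 counts was 1.45 and 1.98 in MIZ-1WT and 3.77 and 3.99 in MIZ-1ΔPOZ. The MIZ-1ΔPOZ ratios were both higher and close to each other. On the log2 scale the means were 0.76 ± 0.32 and 1.96 ± 0.06 (SD, n = 2 each), a difference of 1.19, or 2.28-fold. The exact two-sided permutation test gave p = 0.333, the smallest that 2 against 2 libraries allow, so this test alone cannot pass 0.05. Per kilobase the ratios were 1.67, 2.28, 4.34 and 4.59 in the same order of libraries, with Iglc2 taken at 612 bases. With its transcript of 458 bases these ratios would be lower and their log2 difference the same.

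As a share of the sum of Igkc and Iglc2 counts, Iglc2 made up 40.7% (exact Clopper-Pearson 95% interval 40.4 to 41.1) and 33.5% (33.2 to 33.9) in MIZ-1WT. It made up 20.95% (20.7 to 21.2) and 20.05% (19.8 to 20.3) in MIZ-1ΔPOZ. These intervals cover counting error only, and the 2 MIZ-1WT libraries differed from each other by far more. The shares are of counts of 2 genes and not of cells that use lambda, and Iglc1 and Iglc3 are not part of them. Those of MIZ-1WT are high beside the usual predominance of kappa in mouse B cells. Whether the counts of Igkc are complete was not tested, so absolute ratios, shares and levels that involve Igkc are uncertain.

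The variable segments gave the same direction with a smaller difference. Summed Igkv counts over summed Iglv counts were 3.93 and 5.88 in MIZ-1WT and 6.83 and 7.83 in MIZ-1ΔPOZ, a difference of 0.61 on the log2 scale, or 1.52-fold, with the same p of 0.333 in the exact permutation test. MIZ-1WT replicate 2 was nearer to MIZ-1ΔPOZ replicate 1 than to the other MIZ-1WT library on the log2 scale. Lambda segments made up 20.3% and 14.5% of light chain variable counts in MIZ-1WT and 12.8% and 11.3% in MIZ-1ΔPOZ. For all rows of each locus, kappa over lambda was 2.09, 2.88, 4.83 and 5.20, a log2 difference of 1.03.

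**Figure D3:**
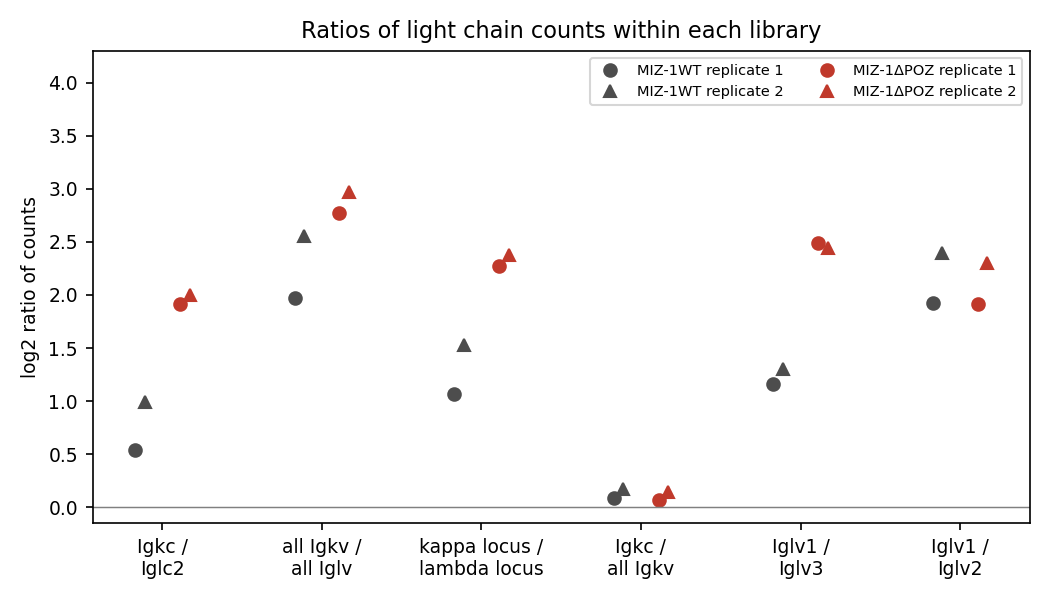
Log2 ratios of counts within each library for 6 pairs of light chain genes or sums, with MIZ-1WT in grey, MIZ-1ΔPOZ in red, replicate 1 as circles and replicate 2 as triangles. Igkc over Iglc2 and Iglv1 over Iglv3 separate the genotypes by 1.19 and 1.23, while Igkc over all Igkv and Iglv1 over Iglv2 overlap.

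The difference between genes was also tested in a fit across all genes in which each library was scaled to its own Igkc count. Relative to Igkc, Iglc2 was lower in MIZ-1ΔPOZ, at -1.21 on the log2 scale (SE 0.26, 95% interval -1.71 to -0.70, adjusted p = 3.27e-05) and so was Iglv3, at -1.63 (SE 0.28, adjusted p = 5.18e-07). Iglv1 was at -0.38 (adjusted p = 0.182) and Iglv2 at -0.37 (adjusted p = 0.210). These 2 of 4 members stand beside 67.6% of all genes lower on this scale, whose median was -0.85, so a gene without any change between genotypes would also lie low on it. Replicate differences in Igkc enter every gene alike in this fit. Its p-values and intervals rest on a spread pooled over genes and not on 2 against 2 libraries alone. Without MIZ-1ΔPOZ replicate 1 or replicate 2, the value of Iglc2 was -1.25 and -1.17 and its adjusted p 0.189 and 0.204.

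Among the lambda variable segments the make-up differed between genotypes. Iglv3 gave 26.1% (exact Clopper-Pearson 95% interval 25.2 to 27.0) and 25.4% (24.4 to 26.4) of Iglv counts in MIZ-1WT. It gave 12.4% (11.8 to 13.0) and 13.3% (12.6 to 14.0) in MIZ-1ΔPOZ. The means, 25.7 ± 0.516% and 12.8 ± 0.647% (SD, n = 2 each), were 12.9 points apart, many times the spread between replicates, with p = 0.333 as the smallest the exact permutation test allows. Iglv1 gave 58.5% and 62.7% in MIZ-1WT and 69.2% and 72.1% in MIZ-1ΔPOZ. Iglv2 gave 15.4% and 11.9%, then 18.4% and 14.6%, which overlap. The ratio of Iglv1 to Iglv3 was 2.24 and 2.47 in MIZ-1WT and 5.60 and 5.43 in MIZ-1ΔPOZ, a 2.34-fold difference. The ratio of Iglv1 to Iglv2, the near-identical pair, was 3.79 and 5.24 against 3.76 and 4.93, with no separation.

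**Figure D4:**
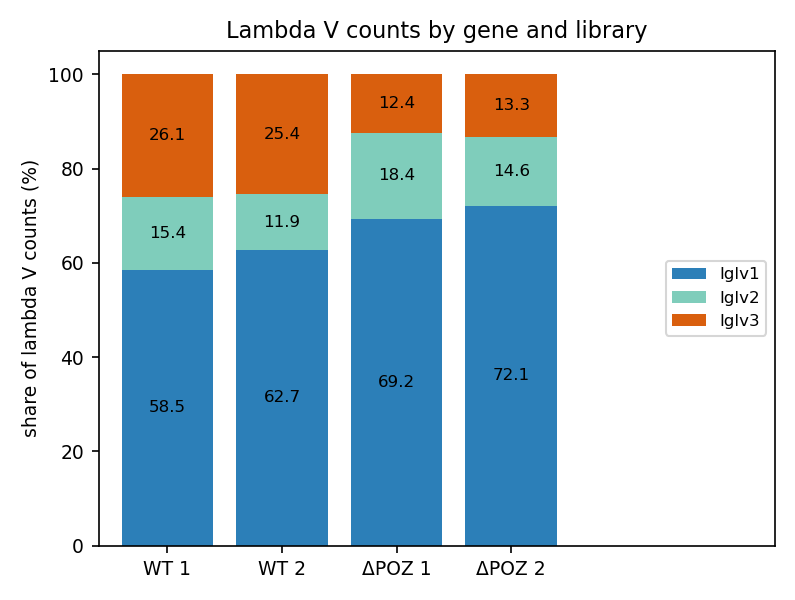
Share of lambda variable counts from Iglv1, Iglv2 and Iglv3 in each library, in percent, as stacked bars. Iglv3 takes 26.1% and 25.4% in the MIZ-1WT bars and 12.4% and 13.3% in the MIZ-1ΔPOZ bars.

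Iglc2 was also compared with the lambda variable segments. Summed Iglv was at 214 and 174 CPM in MIZ-1WT and at 241 and 220 CPM in MIZ-1ΔPOZ, 1.19 times as high. The ratio of Iglc2 to summed Iglv counts was 2.87 and 3.34 in MIZ-1WT and 1.90 and 2.16 in MIZ-1ΔPOZ, a log2 difference of -0.61. Against Iglv3 alone, the ratio of Iglc2 was 11.0 and 13.1 in MIZ-1WT and 15.4 and 16.3 in MIZ-1ΔPOZ. This log2 difference was 0.40, opposite in sign to that against summed Iglv, and the ratios of the genotypes did not overlap. Iglv1 usually joins to the clusters of Iglc3 and Iglc1, the constant genes not analysed here.

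Replicates of one genotype differed in their light chain values too. From MIZ-1WT replicate 1 to replicate 2, Igkc CPM differed by a factor of 1.29, Ighm by 1.29 and Jchain by 2.04, whereas the factors of Iglc2, Iglv1, Iglv2 and Iglv3 were 0.948, 0.873, 0.631 and 0.792. Kappa and every lambda member thus differed in opposite directions between these 2 libraries. In MIZ-1ΔPOZ the factors were 1.09 for Igkc, 0.927 for Ighm, 0.917 for Jchain, 1.04 for Iglc2 and from 0.724 to 0.978 for the variable segments.

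The light chain pairs with a heavy chain and, in the receptor, with the signalling subunits Cd79a and Cd79b. Ighm, the constant gene of IgM, was at 4644 and 5979 CPM in MIZ-1WT and at 11162 and 10351 CPM in MIZ-1ΔPOZ, a log2 fold change of 1.02 (SE 0.13, adjusted p = 0.00378). Cd79a was lower, at 336 and 311 CPM against 103 and 135 CPM (log2 fold change -1.44, adjusted p = 0.00157). Mb1-Cre sits at the Cd79a locus, and the part of that allele in the Cd79a value was not tested. Cd79b was at a log2 fold change of -0.23 (adjusted p = 0.0277), and at -0.05 (adjusted p = 0.514) when libraries were scaled to pan-B markers. Ighd was not analysed here.

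Both constant genes were also set against Ighm within each library. The ratio of Igkc to Ighm counts was 0.192 and 0.193 in MIZ-1WT and 0.155 and 0.183 in MIZ-1ΔPOZ, a log2 difference of -0.19, which was -0.07 without MIZ-1ΔPOZ replicate 1 and -0.31 without MIZ-1ΔPOZ replicate 2. The ratio of Iglc2 to Ighm counts was 0.132 and 0.0970 in MIZ-1WT and 0.0411 and 0.0459 in MIZ-1ΔPOZ, a log2 difference of -1.38. Both ratios were lower in each MIZ-1ΔPOZ library than in each MIZ-1WT library.

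Genes of earlier steps in light chain biology were counted from fixed lists. The surrogate light chain, which pairs with the heavy chain before a light chain gene is assembled, was close to undetected. Vpreb2 was listed at 0, while Vpreb1 was at most at 0.294 CPM and Igll1 at most at 0.0458 CPM. Vpreb3, a related protein of the endoplasmic reticulum, was at 51.5 and 45.6 CPM in MIZ-1WT and at 27.3 and 31.9 CPM in MIZ-1ΔPOZ (log2 fold change -0.71, adjusted p = 0.00461). It was the only one of 4 that could be tested.

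Of 13 genes of V(D)J recombination and end joining, 12 were tested. Of these, 2 were higher and 1 lower, beside 21.1% of all genes higher and 18.9% lower, with a median log2 fold change of 0.02. Scaled to pan-B markers, 4 of the 12 were higher, as were 4805 of all 14554 tested genes. Rag1, a subunit of the recombinase, was lower (-1.39, adjusted p = 0.0315), at 1.10 and 2.02 CPM in MIZ-1WT and 0.525 and 0.661 CPM in MIZ-1ΔPOZ. Rag2, its partner, was at 0.0229 and 0.143 CPM in MIZ-1WT and listed at 0 in MIZ-1ΔPOZ. Hmgb2, a chromatin protein that assists the recombinase, was higher at 0.98 (adjusted p = 0.000755), and so was Xrcc5, a DNA end binding subunit, at 0.30 (adjusted p = 0.00686).

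Of 23 transcription factors known to act on the light chain loci, 13 were lower, 1 was higher and 9 did not pass, with a median log2 fold change of -0.22. Of all tested genes, 18.9% were lower and 21.1% higher. Pou2af1, the B cell coactivator of octamer factors, was higher, at 489 and 518 CPM in MIZ-1WT and at 728 and 748 CPM in MIZ-1ΔPOZ (log2 fold change 0.55, adjusted p = 0.00176). The octamer factors themselves were lower, Pou2f2 at -0.60 (adjusted p = 0.00798) and Pou2f1 at -0.71 (adjusted p = 0.0100). Id3, an inhibitor of E proteins, was lower at -0.91 (adjusted p = 0.000961), and so were the B lineage factors Ebf1 at -0.48 (adjusted p = 0.00336) and Pax5 at -0.46 (adjusted p = 0.0147). Irf4, which acts at light chain enhancers, was at -0.09 (adjusted p = 0.225) and Spi1 at -0.03 (adjusted p = 0.729). The calls of this list depended on scaling, with 5 higher and 9 lower at a median of -0.05 when libraries were scaled to pan-B markers. Of all 14554 tested genes, 4805 were then higher and 1058 lower. That scaling put the median of all genes at 0.17 and left the 4 called light chain members past the threshold.

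Of 13 tested genes of immunoglobulin assembly in the endoplasmic reticulum, 5 were higher and 8 did not pass, beside 21.1% of all genes higher. Their median log2 fold change was 0.14. When libraries were scaled to pan-B markers, 9 were higher and the median was 0.32, beside 4805 of all 14554 tested genes higher. Pdia4, a disulfide isomerase, was at 783 and 889 CPM in MIZ-1WT and at 1487 and 1356 CPM in MIZ-1ΔPOZ (log2 fold change 0.77, adjusted p = 0.00230). Mzb1, a chaperone cofactor of antibody assembly, was higher at 0.73 (adjusted p = 0.000803). Sdf2l1 at 0.49, P4hb at 0.28 and Ppib at 0.21 also passed. Hspa5, the chaperone BiP that binds unpaired chains, was at 0.16 (adjusted p = 0.111), and at 0.34 (adjusted p = 0.0131) on that scaling.

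**Figure D5:**
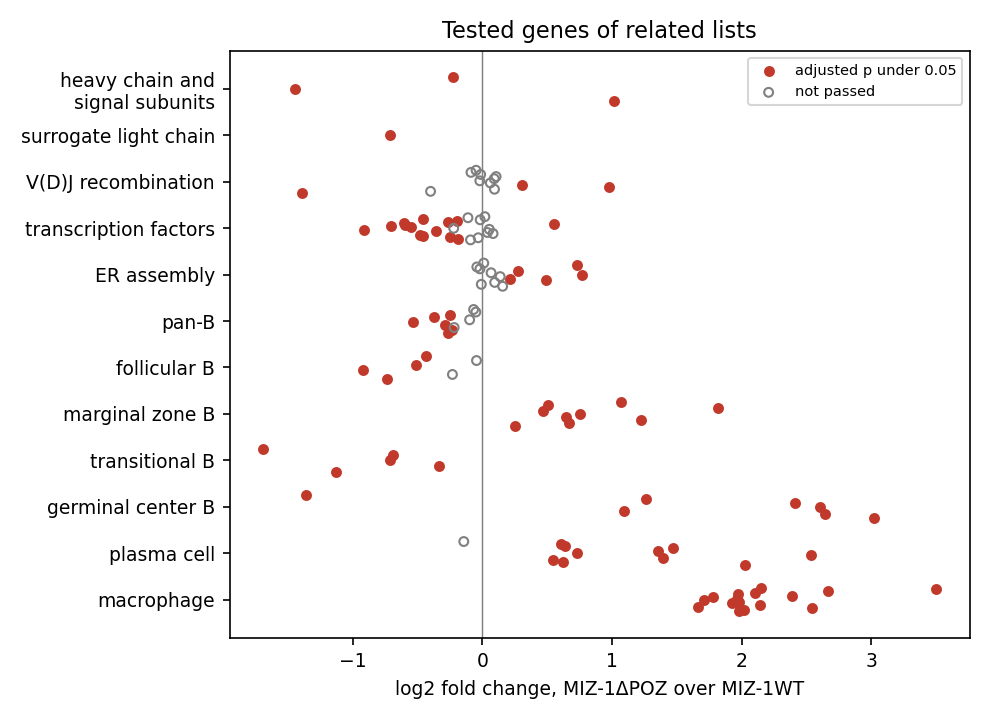
Log2 fold change, MIZ-1ΔPOZ over MIZ-1WT, of each tested gene of 12 gene lists, filled in red where the adjusted p was under 0.05 and open where it was not. Macrophage genes lie between 1.67 and 3.50, and the 5 called genes of ER assembly lie between 0.21 and 0.77.

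Markers of cell states that differ in how much light chain RNA they make moved with genotype as well. Of 11 plasma cell markers, 10 were higher and 1 did not pass, beside 21.1% of all genes higher, with a median log2 fold change of 0.73. Their summed level was 776 and 1114 CPM in MIZ-1WT and 2711 and 2519 CPM in MIZ-1ΔPOZ. Jchain, the chain that joins IgM into polymers in secreting cells, was the largest part of this sum in every library. Its level was 302 and 615 CPM against 1947 and 1786 CPM. Tnfrsf17, a receptor of plasma cells, was near 0 in MIZ-1WT at 0.596 and 0.761 CPM and stood at 3.82 and 4.05 CPM in MIZ-1ΔPOZ. Igkc, Ighm and Jchain were higher in MIZ-1ΔPOZ and in MIZ-1WT replicate 2 than in MIZ-1WT replicate 1. Between MIZ-1ΔPOZ replicates 1 and 2 they did not go together, at factors of 1.09 for Igkc, 0.927 for Ighm and 0.917 for Jchain. Among the listed plasma cell markers only Mzb1 was lower in MIZ-1WT replicate 2 than in replicate 1, at 138 against 145 CPM. Every other marker of that list was higher in replicate 2, such as Xbp1 at 181 against 163 CPM. No plasma cell marker on the list was at 0. The part of these cells in the Igkc, Iglv1, Iglc2 and Iglv3 values was not tested.

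Other B cell states also differed. Without pan-B scaling, the counts that follow stand beside 21.1% of all genes higher and 18.9% lower. All 9 marginal zone markers were higher (median 0.67, summed 3156 and 3146 CPM against 4007 and 4317 CPM), while 4 of 6 follicular markers were lower and 2 did not pass (median -0.47). All 5 transitional markers were lower (median -0.71), among which Cd24a did not pass under 2 other scalings. Of 7 germinal center markers, 6 were higher and Bcl6 was lower, with a summed level of 154 and 160 CPM against 285 and 234 CPM. Of 7 B-1 markers, 3 were higher and 4 did not pass. When libraries were scaled to pan-B markers 6 were higher, beside 4805 of all 14554 tested genes. Of 10 pan-B markers, 6 were lower and 4 did not pass, with a median of -0.24, and 2 were lower when libraries were scaled to them. Whether these states use kappa and lambda in different proportions here was not tested.

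Markers of cells that make no light chain were present as well. Without pan-B scaling, their counts stand beside 21.1% of all genes higher. All 16 macrophage markers were higher, with a summed level of 963 and 1286 CPM in MIZ-1WT and 5769 and 3609 CPM in MIZ-1ΔPOZ, and none was at 0. Of 12 T cell markers 2 were higher and 10 did not pass, with summed levels from 65.1 to 92.7 CPM. Of 5 tested neutrophil markers 1 was higher, or 2 when scaled to pan-B markers, where 4805 of all 14554 tested genes were higher. None of 7 erythroid markers and none of 6 plasmacytoid dendritic markers passed in edgeR, in DESeq2 or at an unadjusted edgeR p of 0.05. The erythroid median log2 fold change of 0.59 was -0.47 without MIZ-1ΔPOZ replicate 2 and 1.18 without MIZ-1ΔPOZ replicate 1, and when libraries were scaled to pan-B markers 1 plasmacytoid dendritic marker was higher. The part of these cells in the light chain values was not tested.

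The genes whose pattern over the 4 libraries was most like that of Igkc were Terb1, Nid1, Bcap29, Haus1 and Golim4, at root mean square distances of 0.0515, 0.0573, 0.0628, 0.0652 and 0.0677 in centred log2 CPM. They were taken from 8483 candidate genes. For Iglc2 they were Tcf12, Faah, Zfp369, Mcl1 and Dennd6b, at 0.00648, 0.00753, 0.00950, 0.0103 and 0.0108. Tcf12 is one of the transcription factors of the list above, at 156 and 149 CPM in MIZ-1WT and 116 and 121 CPM in MIZ-1ΔPOZ. With 4 libraries these distances describe a pattern of 4 values and no more.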

How the data were processed

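RNA was sequenced from 2 MIZ-1WT and 2 MIZ-1ΔPOZ libraries of B220+ splenocytes. The authors depleted ribosomal RNA, trimmed paired-end reads with Trimmomatic, mapped them to mm10 with TopHat2 (version 2.1.0 in the submitters' processing notes) and counted them on Ensembl genes with HTSeq. The authors deposited raw counts per gene, neither normalized nor pooled. The strand setting and the Ensembl release of the counting are not given in the sources used here. HTSeq's lines for reads outside genes (21.1% to 27.2% of the table), ambiguous reads (0.281% to 0.302%) and reads without a unique alignment (42.8% to 44.1%) stayed out of library sizes and tests. A symbol was given to 40254 of 41214 genes from the GENCODE annotation of GRCm38. Each library held between 43026814 and 46387209 counts on genes. The least counted member value was 874 counts, for Iglv2 in MIZ-1WT replicate 2.

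Genotypes were compared with edgeR 4.0.16 in R 4.3.3 (quasi-likelihood test, TMM normalization, Benjamini-Hochberg adjustment over all tested genes, threshold 0.05) for the 14554 genes that reached 10 counts in 2 or more libraries. The common dispersion was 0.00848. CPM used TMM-scaled library sizes. A second fit of the same kind replaced each library size by its Igkc count. Ratios were compared with an exact permutation test over libraries, and shares were given exact 95% intervals. The edgeR step was tested on simulated data. Alternatives were DESeq2 1.42.0, its size factors, other filters, scaling to pan-B markers, library sizes without immunoglobulin genes, a replicate block and leaving out each library.

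Named genes were the members, any gene of the lists, and for Igkc and one lambda constant gene the 5 tested genes with the nearest pattern, with variable and joining segments, genes named Gm or Rik and genes under a mean of 10 CPM passed over. Iglc1 had been set for the second fit and for the nearest patterns. It was not matched, and Iglc2 took its place, a change made after seeing the data. Zbtb17 was added as the targeted gene. The members and lists were chosen with earlier results of these data known.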

Additional observations from a re-analysis of the deposited data

How the results depend on the processing

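Igkc, Iglc2, Iglv1 and Iglv3 kept their direction and stayed past the threshold in every alternative run, and 4 to 5 members passed. With one library left out, the log2 fold changes ranged from 0.65 to 1.03 for Igkc, from -0.39 to -0.31 for Iglc2, from 0.38 to 0.58 for Iglv1, from 0.22 to 0.88 for Iglv2 and from -0.92 to -0.58 for Iglv3. In such a fit the lone library of a genotype is assumed to vary like the other pair. The number of genes past the threshold, 5822, was 2746 of 6052 genes tested with a mean of at least 30 RPM, and from 2204 (without MIZ-1WT replicate 1) to 5739 with one library left out; without MIZ-1WT replicate 2 it was 2825. Scaled to pan-B markers, 4805 of 5863 called genes were higher, against 3076 of 5822 as reported. Iglc2 was then at -0.18 (adjusted p = 0.0498), Iglv3 at -0.58, Igkc at 1.01 and Iglv1 at 0.66.

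The log2 difference in kappa over lambda, 1.19, was 0.61 for all Igkv over all Iglv and 0.58 for Igkc over summed Iglv, the latter chosen after seeing the data, and from 0.97 to 1.41 with one library left out. The cause was not tested. Iglc2 relative to Igkc, -1.21, did not pass without MIZ-1ΔPOZ replicate 1 (-1.25, adjusted p = 0.189) or replicate 2 (-1.17, adjusted p = 0.204), with a range from -1.41 to -0.97. In these fits the whole table gave 317 and 550 calls in place of 10626. The Iglv3 share differed by -13.4 to -12.5 points with one library left out.

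Libraries share only a number between genotypes: deviations of same-numbered libraries correlated at -0.0688. With a replicate block, 4732 genes passed, Iglv2 was at 0.53 (adjusted p = 0.0103), all 5 members passed, Iglc2 relative to Igkc was -1.19 and the difference in the kappa to lambda ratio 1.19. Alternatives that need Iglc1 or Iglc3 (Igkc over Iglc1 alone, Iglc2 and Iglc3 summed) were not run, since these genes were not matched.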
